A study of Rattus norvegicus with 7 samples.

Results

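The 5 dopamine receptor genes of the rat, Drd1 to Drd5, and Ppp1r1b, which encodes DARPP-32, were followed in whole brain RNA of 2 rat lines. Their probes on the array were found by matching the accession of each transcript probe, without its version, to the RefSeq transcripts of these genes. This gave 6 of the 33849 transcript probes, 1 for each of the 6 genes, so no second probe stood beside any of them. The alcohol-preferring (P) line gave 4 rats (replicates 1 to 4) and was set against the alcohol non-preferring (NP) line, with 3 rats (replicates 2 to 4). Both lines came from selective breeding of Wistar stock, and all rats were adult males, housed in pairs and naive to alcohol. Each rat was hybridized to its own 1-colour array, and the submitters had removed a further NP array on quality grounds. The arrays were scanned on 3 dates. P 1, P 2, NP 2 and NP 3 shared date 1, NP 4 was scanned on date 2, and P 3 and P 4 were scanned on date 3.

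Dopamine receptors are G protein-coupled receptors in 2 classes. The D1-like receptors (D1 and D5) couple to the stimulatory G proteins and raise cAMP, and the D2-like receptors (D2, D3 and D4) couple to the inhibitory ones and lower it. DARPP-32 is concentrated in the medium spiny neurons of the striatum, where protein kinase A turns it into an inhibitor of protein phosphatase 1, calcineurin removes that phosphate, and phosphorylation by Cdk5 turns it into an inhibitor of protein kinase A. The D1 receptor marks the spiny neurons of the direct pathway, and the D2 receptor those of the indirect pathway. The comparison asks whether the transcripts of this pathway differ between the lines before any alcohol is drunk. In RNA from whole brain, fewer cells of a type and less RNA per cell cannot be told apart, and a change confined to the striatum is diluted by all other regions.

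None of the 6 transcripts differed between P and NP rats by limma's test across all probes at an adjusted p under 0.05. Differences are given as P minus NP in log2 normalized signal, and a call is an adjusted p under 0.05 over all 29003 tested probes. The 6 differences lay between -0.17 for Drd1 and 0.14 for Drd2, and the P and NP values overlapped for every member. An unadjusted p under 0.05 was reached by 0 of the 6 members and by 11.5% of all tested probes. Over all tested probes 84 were called, which is 0.29% of them, so 0 calls among 6 probes is near the background. Of the probes with all 7 values, 13.3% had no overlap between the lines.

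The probes were measured at different distances from background. Ppp1r1b was bright, with spot intensities 22 to 33.1 times the local background, and Drd2 followed at 7.62 to 9.49 times. The ratios were 2.76 to 6.09 for Drd1, 2.77 to 5.44 for Drd3 and 2.77 to 3.44 for Drd4. The 5.44 of Drd3 was a spot of NP 2 flagged for irregular shape and left out of the fit. The next highest ratio of Drd3 was 3.26, in P 4. The 5 probes named so far lay above the 95th percentile of the 256 negative control spots on all 7 arrays. That count includes the flagged spots of Drd3 in NP 2 and Drd4 in NP 4. Drd5 lay above it on 2 of 7 arrays, with ratios of 1.52 to 2.18, and was the dimmest member relative to its background. Signals of different probes are not compared with each other as transcript levels.

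Among the D1-like receptors, Drd1 (probe GE1273034) read 8.06, 7.66, 8.16 and 8.28 in P 1 to P 4, and 7.91, 8.40 and 8.30 in NP 2 to NP 4. The low value was that of P 2, and NP 2 lay within the range of the P rats. P rats averaged 8.04 ± 0.27 and NP rats 8.20 ± 0.26 (SD, n = 4 and n = 3), and the difference was -0.17 ± 0.17 (SE, adjusted p = 0.714 by limma). The exact two-sided permutation test over the 35 splits of the arrays gave p = 0.457, where the smallest possible is 0.0286.

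Drd5 (probe GE19955), the other D1-like receptor, read 6.75, 6.90, 6.52 and 6.92 in the P rats, and 6.84, 6.86 and 6.82 in the NP rats. Its spot in P 3, the lowest value, carried the scanner's near-background flag. The 3 NP values spanned a far narrower range, with an SD of 0.19 in P against 0.021 in NP. The difference was -0.068 ± 0.13 (adjusted p = 0.845 by limma, exact permutation p = 0.714).

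Among the D2-like receptors, Drd2 (probe GE1116450), the receptor of indirect pathway spiny neurons and the autoreceptor of dopamine neurons, read 9.23, 9.40, 8.80 and 8.94 in the P rats. In the NP rats it read 8.72, 9.22 and 8.92. P 1, P 2 and NP 3 were high, and the other 4 rats, of both lines, lay lower. P rats averaged 9.09 ± 0.27 and NP rats 8.95 ± 0.25 (SD, n = 4 and n = 3), a difference of 0.14 ± 0.17 (adjusted p = 0.763 by limma, exact permutation p = 0.514).

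Drd3 (probe GE22130), a receptor of limbic striatum, read 7.67, 7.71, 7.52 and 7.61 in the P rats, and 7.55 and 7.52 in NP 3 and NP 4. The spot of NP 2 carried the scanner's irregular-shape flag and was set to missing, so the fit rests on 2 NP rats. The difference was 0.087 ± 0.13 (adjusted p = 0.803 by limma, exact permutation p = 0.333 over 15 splits, where the smallest possible is 0.0667). With the irregular spot kept, NP 2 read 8.31, above every other rat, and the difference changed sign to -0.17 (adjusted p = 0.719 by limma).

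Drd4 (probe GE21846), whose transcript in the rat is also found in pineal gland and retina, read 7.56, 7.83, 7.30 and 7.30 in the P rats, and 7.36 and 7.45 in NP 2 and NP 3. Here the irregular spot was that of NP 4. Both NP values lay between the pair P 1 and P 2, which read higher, and the pair P 3 and P 4, which read lower. The difference was 0.091 ± 0.17 (adjusted p = 0.849 by limma, exact permutation p = 0.733). Without P 2 it was -0.019.

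Ppp1r1b (probe GE19206) read 11.09, 11.10, 10.39 and 10.50 in P 1 to P 4, and 10.75, 10.48 and 10.70 in NP 2 to NP 4. P 1 and P 2 stood above all NP rats, and P 3 lay below them. P rats averaged 10.77 ± 0.38 and NP rats 10.65 ± 0.14 (SD, n = 4 and n = 3). The line difference of 0.12 ± 0.19 was not called (adjusted p = 0.815 by limma, exact permutation p = 0.457). The P rats spread more widely at this probe than at most others, since 11.8% of probes with 7 values had a larger SD in P and 47.5% had a larger one in NP.

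**Figure D1:**
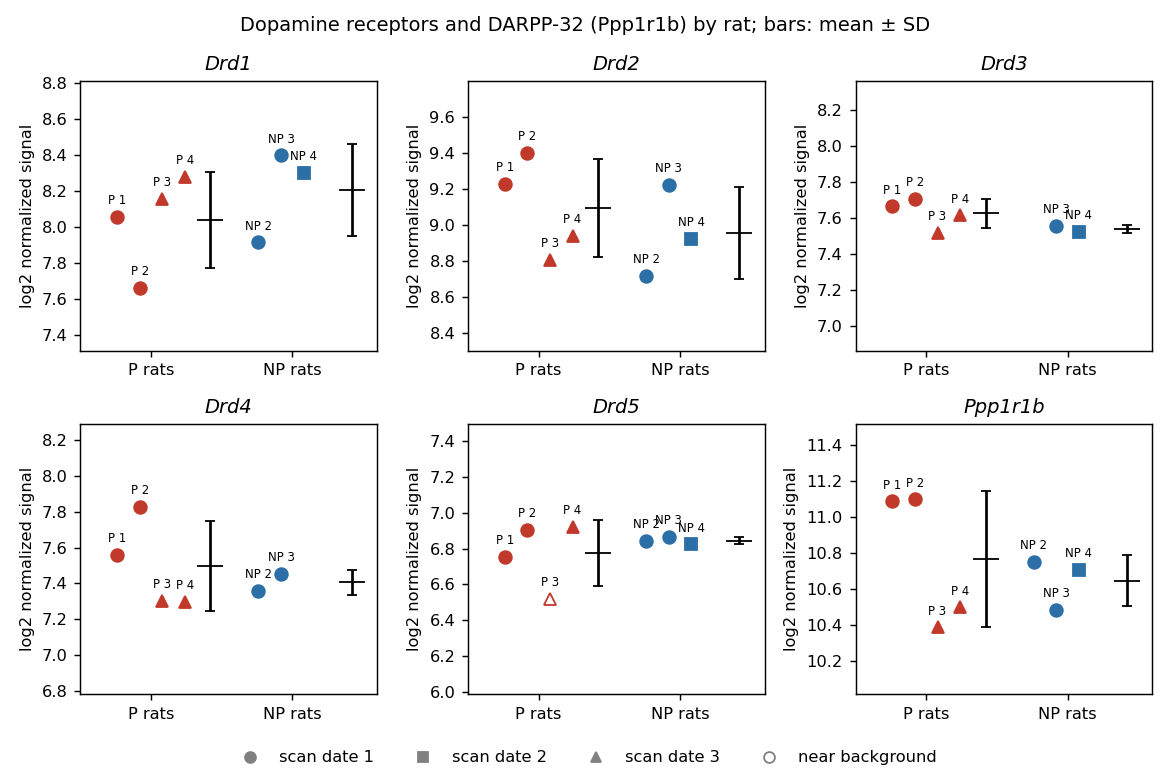
Log2 normalized signal of the 6 transcripts in each rat, with P rats on the left and NP rats on the right of each panel, all panels spanning the same range. Symbols give the scan date, the open symbol is a spot near background, and bars are the mean ± SD. P and NP values overlap in every panel, and at Ppp1r1b the P rats of date 1 (11.09 and 11.10) lie apart from those of date 3 (10.39 and 10.50).

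The intervals give the size of difference that these 7 arrays could bound. As folds of P over NP, the 95% intervals of the 6 members reached from 0.683 for the lower end of Drd1 to 1.46 for the upper end of Ppp1r1b. The Drd2 interval ran from 0.843 to 1.44 and that of Drd3 from 0.869 to 1.30. A 2-fold difference in normalized signal lay outside the intervals of Drd1, Drd2, Drd3, Drd4 and Ppp1r1b, and no difference lay inside them. The interval of Drd5 bounds its signal only, since that probe lay mostly within the range of the negative control spots. These intervals are limma's and take the 7 arrays as independent, with no term for scan date.

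Scan date 1 was the only date that held both lines, with P 1, P 2, NP 2 and NP 3. Differences there were larger in size than over all 7 arrays for Drd1, Drd2, Drd3, Drd4 and Ppp1r1b, and smaller for Drd5. Ppp1r1b differed by 0.48 ± 0.14 (adjusted p = 0.0696 by limma, 2 P and 2 NP rats), with 11.09 in P against 10.62 in NP as means of that date. Drd2 differed by 0.34 ± 0.17 (adjusted p = 0.237) and Drd4 by 0.29 ± 0.14 (adjusted p = 0.22). Drd1 differed by -0.30 ± 0.19 (adjusted p = 0.342), Drd3 by 0.13 ± 0.16 and Drd5 by -0.025 ± 0.13. None of the 6 was called, where 6.47% of all probes were. Adding scan date to the model as a block, in which these 4 arrays alone inform the line term, gave the same differences and no call among the members (adjusted p = 0.069 for Ppp1r1b), with 5.72% of all probes called.

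Leaving P 1 and P 2 out turned the direction of 4 members. Ppp1r1b was then -0.20 ± 0.13 (adjusted p = 0.469 by limma), Drd4 -0.10 ± 0.14, Drd2 -0.082 ± 0.16 and Drd1 0.014 ± 0.16. Leaving P 3 and P 4 out gave 0.45 ± 0.13 for Ppp1r1b (adjusted p = 0.0543) and 0.36 ± 0.16 for Drd2 (adjusted p = 0.157), where 11.5% of all probes were called. The means of the 2 pairs of P rats thus lay on opposite sides of the NP mean at Ppp1r1b, Drd2, Drd4 and, in the other direction, Drd1.

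Between these pairs, P 1 and P 2 minus P 3 and P 4, Ppp1r1b was higher by 0.65 ± 0.14 (adjusted p = 0.016 by limma), a 1.57-fold difference. Drd2 differed by 0.44 ± 0.14 (adjusted p = 0.0695), Drd4 by 0.39 ± 0.15 (adjusted p = 0.108) and Drd1 by -0.36 ± 0.16 (adjusted p = 0.174). Drd3 (0.12 ± 0.14) and Drd5 (0.11 ± 0.17) had the smallest differences. So 1 of the 6 members was called, where 13.8% of all probes were (6.31% higher and 7.53% lower), and 8.36% of probes had a larger difference than Ppp1r1b in either direction. Scan date and rat cannot be told apart here, since each date holds its own rats.

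The call at Ppp1r1b depended on the processing, and its size lay between 0.49 and 0.70 under the 4 other settings tried. In the authors' processed values it read 4.41, 4.46, 3.70 and 3.78 in P 1 to P 4, and 4.04, 3.81 and 4.03 in NP 2 to NP 4. The difference between the pairs was 0.70 there (adjusted p = 0.107 by limma), and 2 probes of the whole array (0.00691%) were called there, against 4003 in the values used here. Before scaling between arrays, the background-subtracted intensity of Ppp1r1b was 1891 and 1626 in P 1 and P 2, against 1725 and 1651 in P 3 and P 4. The arrays themselves were not equally bright. The median of all transcript probes on the log2 scale before scaling was 7.11 and 6.89 in P 1 and P 2, against 7.46 and 7.42 in P 3 and P 4, so that scaling between arrays moved P 1 and P 2 up relative to P 3 and P 4. The pair difference before scaling was 0.051 for Ppp1r1b, -0.18 for Drd2, -0.11 for Drd4 and -0.92 for Drd1, where that of the median probe was -0.44. The part of array brightness in these differences was not tested.

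**Figure D2:**
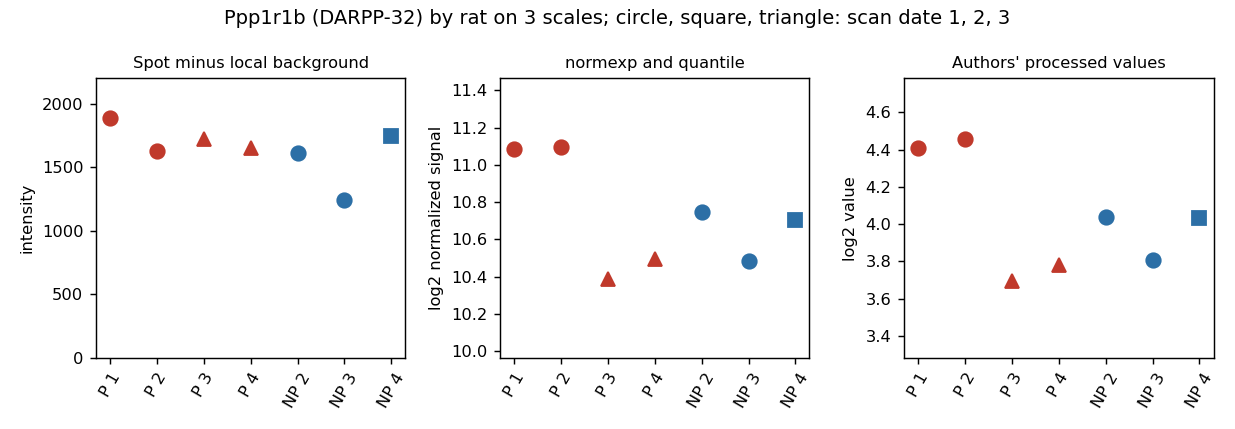
Ppp1r1b in each rat as background-subtracted intensity (left, linear axis from 0), as log2 normalized signal (middle) and in the authors' processed log2 values (right), with P rats left of NP rats. P 1 and P 2 stand highest on both normalized scales, at 11.09 and 11.10 in the middle panel, while the unscaled intensities of the P rats lie between 1626 and 1891.

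**Figure D3:**
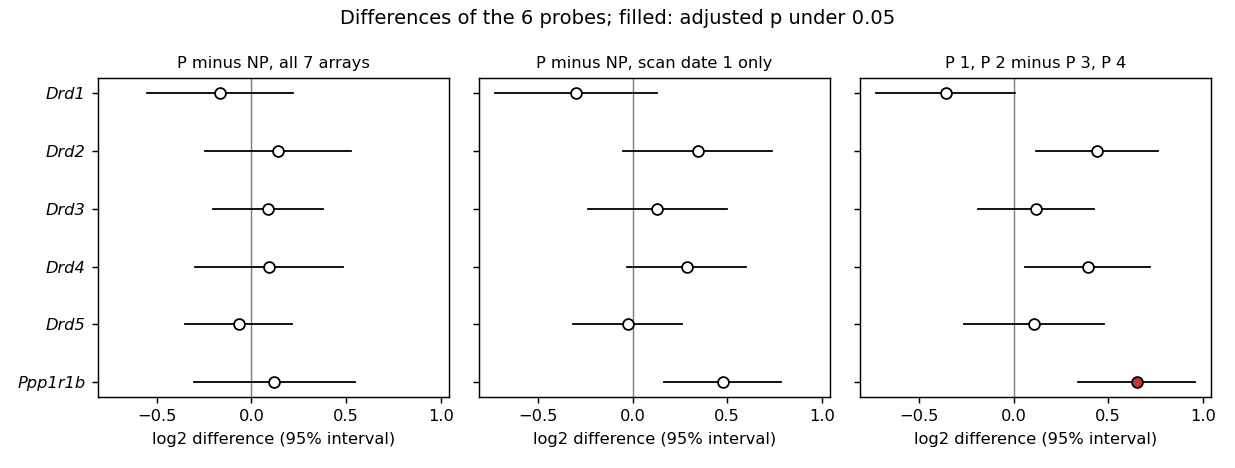
Log2 differences of the 6 transcripts with 95% intervals for P minus NP over all 7 arrays (left), P minus NP within scan date 1 (middle) and P 1 and P 2 minus P 3 and P 4 (right). Only Ppp1r1b in the right panel, at 0.65, is filled, which marks an adjusted p under 0.05.

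Genes around the receptors were described in 7 lists, with 1 probe per gene. No gene of these lists was called between the lines, where 0.176% of the 5677 named genes tested were. The median difference of all named genes was 0.032. For dopamine synthesis, transport and breakdown, 7 of 9 genes were tested and had a median of -0.15. The smallest p were those of Dbh, which makes noradrenaline from dopamine (0.38 ± 0.13, adjusted p = 0.342 by limma), Slc6a3, the dopamine transporter (-0.22 ± 0.10), and Gch1, which makes the cofactor of tyrosine hydroxylase (-0.20 ± 0.14). Th itself, the first enzyme of dopamine synthesis, was measured in 2 P rats and 1 NP rat after flagged spots were removed, and differed by -0.16 ± 0.24.

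Downstream of the receptors, 19 of 24 G proteins, adenylyl cyclases and phosphodiesterases were tested, with a median of -0.009. The inhibitory G protein subunits Gnai3 (-0.32 ± 0.14) and Gnai1 (-0.37 ± 0.21) and the cAMP phosphodiesterase Pde4b (-0.22 ± 0.13) had the smallest p there, none called. Of 17 tested kinases and phosphatases that act on DARPP-32 or below it, with a median of 0.05, these were Ppp3cb, a catalytic subunit of calcineurin (-0.66 ± 0.25, adjusted p = 0.382), Ppp1ca, a catalytic subunit of protein phosphatase 1 (0.27 ± 0.11), and the casein kinase Csnk1d (0.41 ± 0.20). Of 17 tested receptor regulators and partners, with a median of 0.031, they were the kinase Akt1 (0.43 ± 0.18), Rgs7 (-0.20 ± 0.12) and Rgs2 (-0.19 ± 0.14), the last a pair of regulators of G protein signalling. Ppp3cb was called within scan date 1 (-0.95, adjusted p = 0.0148), where 6.37% of named genes were.

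Of 14 tested genes that respond to dopamine signalling, with a median of -0.16, the immediate early genes Egr1 (0.28 ± 0.14), Nr4a1 (-0.40 ± 0.24) and Arc (-0.37 ± 0.22) had the smallest p. Nr4a1 and Arc changed sign within scan date 1 (0.14 for each). Of 15 tested of 29 striatal markers, with a median of 0.11, these were Adora2a, the adenosine receptor of indirect pathway neurons (0.42 ± 0.18, adjusted p = 0.412 by limma), the orphan receptor Gpr6 (0.25 ± 0.13) and Pdyn, the dynorphin precursor (0.19 ± 0.12). Within scan date 1, 3 striatal markers were called, Adora2a (0.62, adjusted p = 0.0315) and Rasd2 (0.58, adjusted p = 0.0337) higher in P and Tac1 lower (-0.62, adjusted p = 0.0307). Adora2a lost its call in the date-block model (adjusted p = 0.076). Of 9 tested markers of midbrain dopamine neurons, with a median of -0.13, the transcription factor Nr4a2 (-0.57 ± 0.19, adjusted p = 0.332), Slc6a3 and the nicotinic subunit Chrna6 (0.26 ± 0.16) came first.

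Between the pairs of P rats 31 of 127 tested list genes were called, with the 6 members and the marker lists included. Of these, 22 were higher in P 1 and P 2 and 9 were lower. Among all named genes 15.6% were called. The genes named here for this contrast were chosen after their values were seen. Of the 19 G protein, cyclase and phosphodiesterase genes 6 were higher in P 1 and P 2 and 2 were lower. Gng7, the striatal G protein gamma subunit that pairs with the D1 receptor's G protein, was higher by 1.17 ± 0.14 (adjusted p = 0.00459 by limma), and Adcy5, the main striatal adenylyl cyclase, by 0.56 ± 0.14 (adjusted p = 0.0296). Gnaz, an inhibitory G protein subunit, was lower (-0.89 ± 0.14, adjusted p = 0.00693). Of the 17 kinases and phosphatases 2 were higher, among them Ppp1r9b, or spinophilin, which anchors protein phosphatase 1 at dendritic spines (0.72 ± 0.14), and 3 were lower, among them Ppp3cb (-0.85 ± 0.16) and Ppp1cb (-0.53 ± 0.14). Of the 17 receptor regulators 4 were higher, with the receptor kinases Grk2 (1.05 ± 0.17) and Grk6 (0.63 ± 0.14) among them, and none was lower.

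Of the 14 dopamine-responsive genes 5 were higher in P 1 and P 2, Junb (1.14 ± 0.20) and Fos (0.56 ± 0.15) among them, and 2 were lower, Tac1, the substance P precursor of direct pathway neurons (-0.96 ± 0.17), and Homer1 (-0.62 ± 0.14). Of the 15 striatal markers 3 were higher, with Rasd2, a striatal small G protein, at 0.83 ± 0.14, and 1 was lower, Tac1. None of the 8 midbrain markers with values in both pairs was called. Markers of other cell types were called in the same contrast: the glial genes Sox10 (1.09 ± 0.15), Gfap (0.71 ± 0.14) and Aldh1l1 (0.56 ± 0.14) were higher in P 1 and P 2, and Nefm (-1.21 ± 0.15) and Aif1 (-0.75 ± 0.20) were lower. Their part in the values of Ppp1r1b and the dopamine lists was not tested. In the authors' processed values 0 genes of all the lists were called in this contrast by limma, where 2 of all 28923 probes were. There 44 list genes and 7359 probes had an unadjusted p under 0.05. In the values used here 127 list genes were tested in this contrast, and 56 of them and 8800 probes had an unadjusted p under 0.05.

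**Figure D4:**
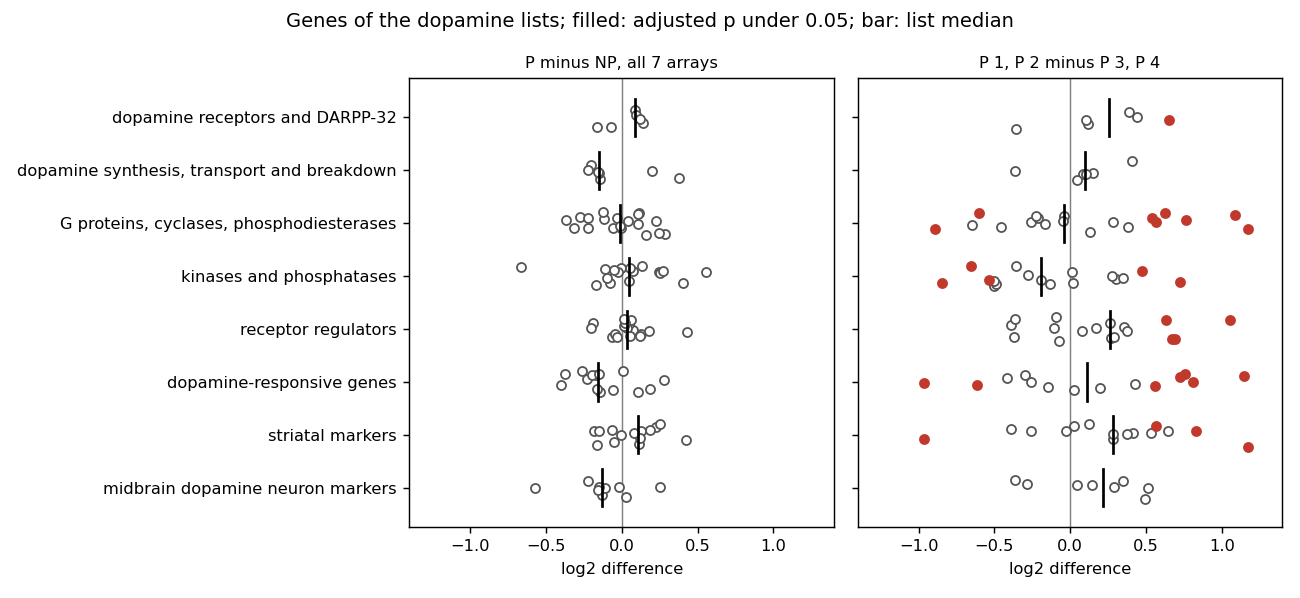
Log2 differences of single genes in the dopamine lists for P minus NP over all 7 arrays (left) and for P 1 and P 2 minus P 3 and P 4 (right), with a bar at each list's median. No point is filled in the left panel, and 1 of the 6 receptor and DARPP-32 probes, Ppp1r1b at 0.65, is filled in the right one.

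The labelled tissue was checked against cell type and region markers. The summed signal of the 15 striatal markers was 14.021, 14.002, 13.83 and 13.87 in P 1 to P 4 on the log2 scale, so it stood higher in the pair in which Ppp1r1b did, and it ranged from 13.88 to 13.95 in NP rats. Other sums split the other way: P 1 and P 2 read 13.38 and 13.33 for neuron markers, against 13.40 and 13.60 in P 3 and P 4, and 14.24 and 14.22 for oligodendrocyte markers, against 14.32 and 14.46. Choroid plexus markers read 12.25 and 12.11 in P 1 and P 2, against 12.40 and 12.45 in P 3 and P 4, and microglia markers 12.48 and 12.47, against 12.51 and 12.49. The summed midbrain dopamine markers ranged from 10.79 to 11.08 in P and from 11.04 to 11.11 in NP, and neuron markers from 13.33 to 13.60 in P and from 12.95 to 13.41 in NP. Astrocyte markers ranged from 13.59 to 13.76 in P and from 13.65 to 13.79 in NP, and oligodendrocyte markers from 14.22 to 14.46 in P and from 14.16 to 14.45 in NP. Microglia markers ranged from 12.47 to 12.51 in P and from 12.43 to 12.66 in NP, choroid plexus markers from 12.11 to 12.45 in P and from 12.17 to 12.79 in NP, and pituitary and pineal markers from 9.76 to 10.44 in P and from 9.93 to 10.37 in NP. No marker gene was called between the lines over all 7 arrays. Within scan date 1, Aif1, a microglia marker (-1.23, adjusted p = 0.0138 by limma), and Nefm, a neurofilament subunit (-0.81, adjusted p = 0.0295), were called lower in P, and both were called with scan date as a block. The part of striatal tissue content in the Ppp1r1b values was not tested.

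The smallest p among neuron markers were those of Uchl1 (0.37 ± 0.17), Snap25 (-0.23 ± 0.16) and Nefm (-0.20 ± 0.32), and among astrocyte markers those of Aqp4 (-0.45 ± 0.19), Gja1 (-0.22 ± 0.12) and Slc1a2 (0.24 ± 0.13). Among oligodendrocyte markers they included Mog (-0.45 ± 0.16) and Mag (0.18 ± 0.15), and among microglia markers Aif1 (-0.81 ± 0.24), Tyrobp (-0.36 ± 0.12) and Csf1r (0.23 ± 0.11). For pituitary and pineal they were Asmt (-0.57 ± 0.19), Crx (0.31 ± 0.11) and Cga (-0.64 ± 0.53), and for choroid plexus Kcne2 (-0.32 ± 0.13), Folr1 (0.29 ± 0.13) and Kl (0.13 ± 0.11).

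The genes whose values followed a member most closely over the 7 arrays were looked up among 5427 probes of named genes above background on every array. Ppp1r1b was most like Efhd2, a calcium-binding protein, with a Pearson r of 0.997, and Cntnap1, a protein of the axon near the node of Ranvier, with r of 0.994. Efhd2 read 11.52, 11.57, 10.85 and 10.94 in P 1 to P 4, and 11.25, 10.94 and 11.19 in NP 2 to NP 4, the same order of pairs. Probes with r over 0.9 numbered 273 for Ppp1r1b, 32 for Drd2 and 18 for Drd1. Drd2 was most like Prdx4 (0.979) and Ptger2 (0.962; 0.743 with median scaling), and Drd1 was most like Dnajb6 (0.978) and Pcyox1 (0.96). The 7 points of each correlation share arrays, scan dates and scaling, and these values are a description only.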

How the data were processed

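Whole brain RNA was labelled with biotin and measured on 1-colour arrays, per the labels. The deposited scanner output holds spot intensity, background intensity, a normalized expression value and a quality flag, as its column names say. The authors also deposited processed log2 values, with no method stated in the labels or headers. Their array medians were -0.069 to 0.047. On each array they correlated at 0.9985 or more with the log2 of the scanner output's normalized expression values. Here limma 3.58.1 in R 4.3.3 corrected background (normexp, offset 50) and quantile-normalized the 33849 transcript probes. A masked, irregular or contaminated flag made a spot missing. Probes above background on at least 3 of 7 arrays were fitted with lmFit and eBayes without a block, with Benjamini-Hochberg adjustment over 29003 probes. The number of arrays limits the precision, and replicates are separate rats. Accessions were matched to the GRCr8 RefSeq table, naming 7207 probes; its coordinates were not used. For lists, the brightest probe stood for a gene. Named are all members, up to 3 genes per list by p, and the 2 most alike genes by Pearson r. One listed gene is not reported here. Members, lists and tests were chosen with earlier results of these data known. The fit was tested on simulated data. Alternatives were other backgrounds, scalings, filters, variance models, blocks and left-out arrays; keeping irregular spots was added after seeing the data. Figures used matplotlib 3.10.9.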

Additional observations from a re-analysis of the deposited data

How the results depend on the processing

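Under the 22 alternatives, no member was called between the lines by limma. At an unadjusted p under 0.05 there were 0 members in each of the 7 fits that left out 1 array, where 1801 to 4800 probes reached it. Within scan date 1 there was 1 of the 6 members, where 7809 of all 28919 probes reached it. With scan date as a block there was also 1 (7473 of 28919 probes), and without P 3 and P 4 there were 2 (8752 of 28928 probes). Reversed directions were those without P 1 and P 2 (Ppp1r1b -0.20, Drd4 -0.10, Drd2 -0.082, Drd1 0.014), without P 2 (Drd4 -0.019), without P 3 (Drd5 0.016) and with irregular spots kept (Drd3 -0.17); their adjusted p lay between 0.469 and 0.975. Leaving out 1 array gave -0.31 to -0.040 for Drd1, 0.020 to 0.27 for Drd2, 0.060 to 0.12 for Drd3, -0.019 to 0.16 for Drd4, -0.12 to 0.016 for Drd5 and 0.011 to 0.25 for Ppp1r1b.

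Between the pairs of P rats the Ppp1r1b call was lost with plain subtraction (0.67, adjusted p = 0.107 by limma). There 0 members and 0 of all 28923 probes were called, and 3 members and 7545 probes had an unadjusted p under 0.05. The call was also lost in the authors' values (0.70, adjusted p = 0.107 by limma). There 0 members and 2 of 28923 probes were called, and 2 members and 7359 probes had an unadjusted p under 0.05. The cause was not tested. Genes of the lists, marker lists included, that were called between the lines numbered 8 within scan date 1, where 6.37% of named genes were called. They numbered 7 with scan date as a block (5.72% of all probes called) and 14 without P 3 and P 4 (11.5% of all probes called). Without P 1 and P 2 there was 1, against 0 over all 7 arrays, where 130 list genes were tested. Probes called numbered 84, and 49 among those above background on all arrays, 154 with array weights, 51 in the authors' values, 1870 within scan date 1, 1655 with scan date as a block, 189 without P 1 and P 2, 3318 without P 3 and P 4, and 51 to 121 without 1 array (53 without NP 3, 51 without NP 4). Among list genes, Arc (0.14 within date 1 and with the date block, 0.0061 without P 3 and P 4), Nr4a1 (0.14, 0.14 and 0.00074 in these settings), Nefm (0.41 without P 1 and P 2, 0.054 without P 2, with -0.40 to 0.054 over the fits without 1 array) and Snap25 (0.061 within date 1 and with the date block) changed sign. With the replicate number as a block, on the 6 rats with numbers 2 to 4, Ppp1r1b differed by 0.015 and Drd2 by 0.094. In that fit 104 probes and no member were called. Deviations of same-numbered rats correlated at 0.097, 0.057 and 0.021, and not every rat correlated best with its own number. So few arrays cannot show whether the numbers pair the rats, and the labels do not say.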
